A study of Mus musculus with 6 samples.

Results

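Proteasome subunit genes were described in 6 RNA sequencing libraries of mouse thymocytes sorted at the double-negative 1 (DN1) stage, the CD44-positive, CD25-negative fraction in which the earliest thymic progenitors are found. Members were all gene symbols that begin with Psma, Psmb, Psmc, Psmd, Psme or Psmf followed by a digit. The rule found 46 of 24318 symbols, and all 46 were present in all 6 tables. They comprised 7 genes of the alpha ring, 7 of the constitutive beta ring, 3 immunoproteasome subunits, 2 tissue-restricted subunits, 6 base ATPases, 11 non-ATPase subunits of the regulatory particle, 3 assembly chaperones with subunit-like symbols, and 5 activator or inhibitor genes. Another 2 symbols met the rule by spelling: Psmc3ip, which encodes a meiotic recombination cofactor, and Psme2b, a copy of Psme2. The 31 genes of both constitutive rings, the ATPase ring and the non-ATPase particle are called the constitutive subunits below.

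The series set WT DN1 cells against Tle134-deficient DN1 cells, read here as cells lacking Tle1, Tle3 and Tle4, which are corepressors of the Groucho family. Each group held 3 libraries, all from mice aged between 5 and 8 weeks. The sorted cells of both groups were negative for lineage markers, TCRb and CD8a as well as CD25. The alleles, the means of deletion, any strain and the number of animals behind a library could not be read from the labels. P-values therefore measure the spread between these libraries, part of which may be technical. Values are FPKM, fragment abundance corrected for transcript length and library total. Levels are set side by side between genes on that basis, and effects of other gene traits, such as base composition, may remain.

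The proteasome degrades proteins tagged with ubiquitin. Its barrel is built from outer rings of alpha subunits, which gate the channel, around inner rings of beta subunits, of which Psmb5, Psmb6 and Psmb7 carry the proteolytic sites. In lymphoid cells, and in other cells under interferon gamma, Psmb8, Psmb9 and Psmb10 take the places of these catalytic subunits to form the immunoproteasome, which favours peptides that bind MHC class I. The regulatory particle caps the barrel with a ring of ATPases that unfold substrates and with non-ATPase subunits that bind and remove ubiquitin, while the PA28 activators Psme1, Psme2 and Psme3 can cap it in their place.

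None of the 3 genes named by the genotype was lower in the libraries labelled Tle134-deficient. Tle1 measured 11.1 to 11.5 FPKM there against 1.19 to 3.61 in WT, and Tle3 58.6 to 82.6 against 23.4 to 35.9, both without overlap. Tle4 measured 17.8 to 35.2 against 14.5 to 18.8, with overlap. None passed the threshold (limma adjusted p 0.101, 0.232 and 0.728). The values per locus do not show single exons, so these levels do not check the deletion, and every direction given here is between labels. The summed level of 10 B cell markers was 2171 to 3513 FPKM in the labelled-deficient libraries and 139.7 to 393 in WT, with 8 of the 10 genes past the threshold. Limma called 0 genes of any kind higher without the filter on low values, with a term for replicate number, or with either of WT replicates 1 and 2 or labelled-deficient replicates 1 and 2 left out, so these calls are lost there. The sum of 10 T-lineage markers was 228.3 to 772.9 against 458.3 to 1203. Of the genes of the gate, Cd44 was at 27.5 FPKM or more and Ptprc at 58.2 or more in every library, and Cd8a at 2.48 or less. Cd44 and Ptprc had log2 differences of 0.37 and 0.61, whereas Kit, Flt3 and Il7r had -0.86, -0.56 and -0.20. All of these overlapped between the groups and did not pass the threshold. Kit measured 31.8, 36.5 and 37.1 FPKM in WT and 9.09, 21.5 and 33.9 in the labelled-deficient libraries. Il2ra, which encodes CD25, was low but did not overlap, measuring 2.83, 3.59 and 1.69 FPKM in WT and 6.75, 7.36 and 4.22 in the labelled-deficient libraries (0.95, limma adjusted p 0.582). In bulk libraries, fewer cells of a type and less RNA per cell cannot be told apart. Read totals were not analysed here. The deposited interval of a member spanned a median of 8.71% to 18.0% of its value to either side, depending on the library.

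No constitutive or immunoproteasome subunit passed the threshold between the groups, and the values of the groups overlapped for each of these genes. Of the 46 members, 44 reached 1 FPKM in at least 3 libraries and were tested, and 0 were higher and 0 lower in the labelled-deficient libraries at an adjusted p under 0.05 (limma on log2(FPKM + 1), Benjamini-Hochberg over all 11576 genes tested). Over all genes, limma called 0.631% higher and 0.0691% lower. At an unadjusted p under 0.05, limma counted 1 member, Psme2b, and 1163 of all genes. The groups did not overlap for 1 member, again Psme2b, which was higher, and for 0 members that were lower, against 8.73% of all genes higher and 6.57% lower without overlap.

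The log2 differences of the members (labelled-deficient minus WT) had a median of 0.07, with 26 above 0 and 18 below, beside a median of 0.03 over all genes. With the libraries scaled to equal medians the split was 21 above and 23 below. It also turned on single libraries: without WT replicate 3, 38 of the 44 were above 0, and without WT replicate 2, 29 were below 0. The 31 constitutive subunits had a median difference of 0.01, with 16 above 0 and 15 below (11 above 0 after median scaling), from -0.44 for Psmd12 to 0.69 for Psmb3. Their median was 0.31 without WT replicate 3 (27 above 0), -0.31 without WT replicate 2 (6 above 0) and -0.31 without labelled-deficient replicate 3 (6 above 0). The smallest adjusted p among them in limma was 0.820. The intervals were wide: for 1 member, Psmd11, the 95% interval of the log2 difference lay within 1 unit of 0 on both sides (-0.70 to 0.96), and the interval of each other member tested reached past a 2-fold difference. These intervals come from the fit without a term for replicate number.

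**Figure D1:**
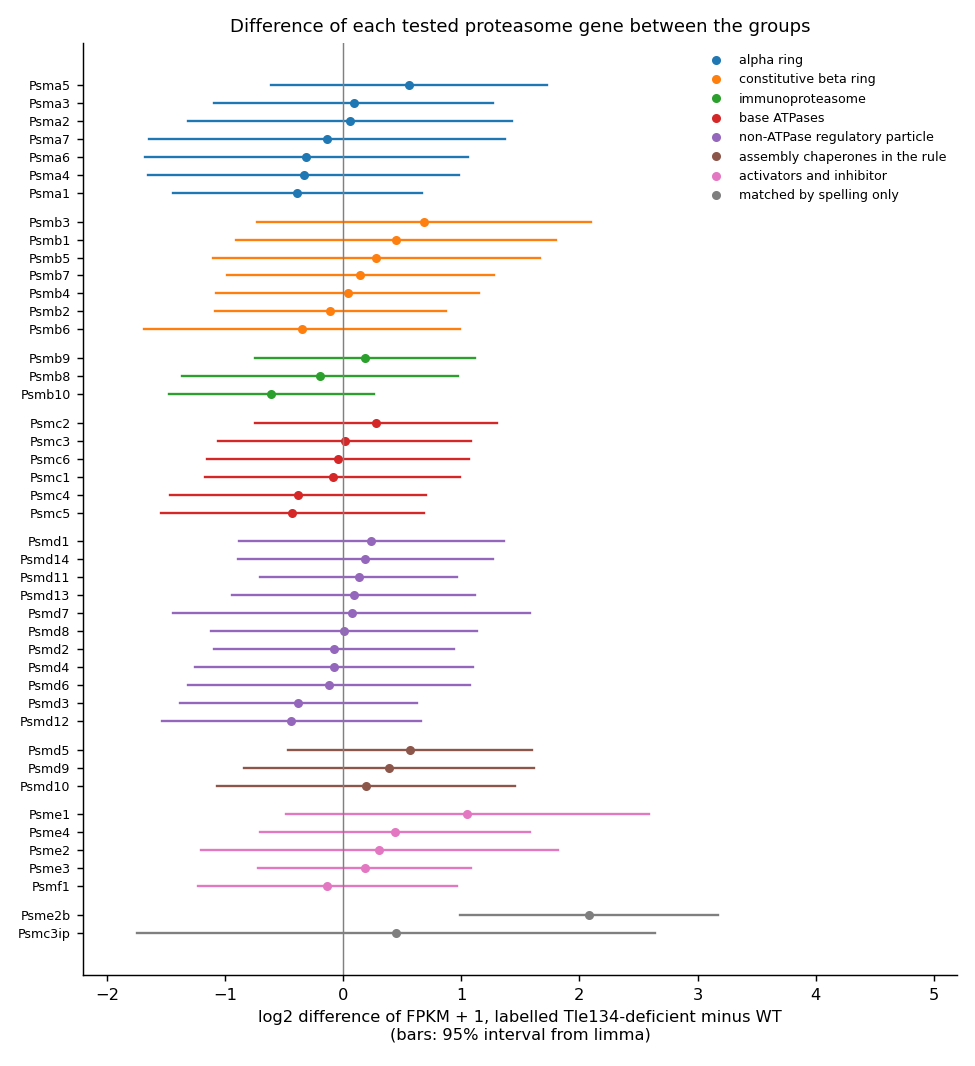
Difference of each of the 44 tested genes on the log2(FPKM + 1) scale (x axis), labelled Tle134-deficient minus WT, with its 95% interval from limma and genes grouped by place in the complex. All intervals but that of Psme2b include 0, and that of Psme2b runs from 0.99 to 3.18.

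Psmb8, the immunoproteasome counterpart of Psmb5, was the most abundant catalytic subunit in each of the 6 libraries, while Psmb5 had the second-lowest mean of the constitutive subunits, above Psmd12. The RefSeq sequences before the annotated starts of this pair are shown because its ratio was the highest of the 3 catalytic pairs in every library (build GRCm38.p6, 250 bases, 5′ to 3′ on the gene's strand). The capitals in Psmb8 (chr17:34197945-34198194, plus strand) mark a gamma-activated sequence, searched as TTCNNNGAA on both strands, 97 to 89 bases before the start. The capitals in Psmb5 (chr14:54617996-54618245, minus strand) mark an antioxidant response element, searched as TGACNNNGC on both strands, 47 to 39 bases before the start.
Psmb8: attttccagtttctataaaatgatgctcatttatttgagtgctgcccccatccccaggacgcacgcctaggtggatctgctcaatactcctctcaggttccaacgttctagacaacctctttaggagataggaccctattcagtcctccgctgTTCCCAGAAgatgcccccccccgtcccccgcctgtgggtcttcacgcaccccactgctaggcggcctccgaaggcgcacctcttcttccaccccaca
Psmb5: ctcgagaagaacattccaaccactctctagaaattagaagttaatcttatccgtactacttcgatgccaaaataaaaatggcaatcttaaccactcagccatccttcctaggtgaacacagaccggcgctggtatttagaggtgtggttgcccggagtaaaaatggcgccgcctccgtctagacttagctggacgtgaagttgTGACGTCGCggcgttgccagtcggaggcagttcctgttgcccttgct
The gamma-activated sequence occurred before 8.13% of the 27025 genes in the table, before 1 of the 3 immunoproteasome genes and before 0 of the 25 constitutive subunits that had an entry. The antioxidant response element occurred before 11.5% of all genes and before 4 of these 25 (Psmb5, Psmb6, Psmc6 and Psmd12). The CCAAT box, searched as CCAAT on both strands, occurred before 10 of the 25, or 40%, against 37.5% of all genes. The interferon-stimulated response element, searched on both strands, occurred before 0 of the 3 immunoproteasome genes, before 2 of the 25 constitutive subunits (Psmb3 and Psmd4) and before 3.46% of all genes. These are matches of letters within this window, and no binding was measured.

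Psmb8 (mm9 chr17:34335140-34338399) measured 77.0, 68.4 and 151 FPKM in WT replicates 1, 2 and 3, and 82.8, 53.7 and 119 in labelled-deficient replicates 1, 2 and 3. Replicate 3 was the highest of each group and replicate 2 the lowest, and the groups overlapped. The log2 difference was -0.19 (SE 0.52, 95% interval -1.36 to 0.98), with a limma adjusted p of 0.967. Against the median constitutive subunit of its own library, Psmb8 stood 2.45-fold to 3.29-fold higher, a narrow range over both groups. By mean level it lay at the 96.8th percentile of the genes tested.

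Psmb9, which replaces Psmb6 and lies beside Psmb8 in the MHC region of chromosome 17, was less abundant than Psmb8 in every library (Psmb8 to Psmb9 ratio 4.70 ± 1.10 in WT and 3.73 ± 1.41 in the labelled-deficient libraries, SD, n = 3). Its values were 14.2, 19.9 and 28.8 FPKM in WT and 17.3, 25.2 and 28.0 in the labelled-deficient libraries, again highest in replicate 3 of each group. The difference was 0.18 (SE 0.42, limma adjusted p 0.959). The deposited interval of WT replicate 1 ran from 1.89 to 26.5 FPKM, so its low value was poorly determined.

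Psmb10, which replaces Psmb7, did not follow the other immunoproteasome subunits across libraries. It measured 28.4, 17.8 and 26.0 FPKM in WT and 13.8, 19.2 and 13.1 in the labelled-deficient libraries, where replicate 2 was the highest and replicate 3 the lowest. The groups overlapped through WT replicate 2 and labelled-deficient replicate 2. The log2 difference of -0.61 (SE 0.39, 95% interval -1.48 to 0.26, limma adjusted p 0.704) was the lowest of all members, and it stayed between -0.80 and -0.48 with any 1 library left out.

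**Figure D2:**
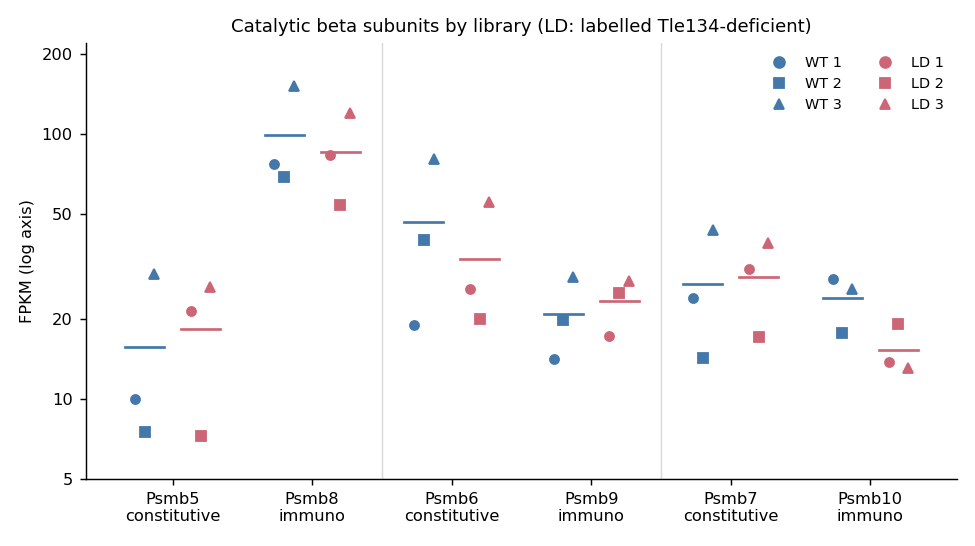
FPKM (log axis) of each constitutive catalytic subunit and its immunoproteasome counterpart in the 6 libraries, with LD for the libraries labelled Tle134-deficient, a symbol for each replicate number and a line at the group mean. Psmb8 lies above Psmb5 in all libraries, and 5 of the 6 genes are highest in replicate 3 of each group.

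Among the constitutive counterparts, Psmb5, with the chymotrypsin-like site, measured 10.002, 7.53 and 29.5 FPKM in WT and 21.5, 7.31 and 26.5 in the labelled-deficient libraries (difference 0.28, SE 0.62). Its locus also carried the symbol Mir686. Psmb6, with the caspase-like site, measured 19.1, 39.8 and 80.3 against 26.1, 20.1 and 55.3 (-0.35, SE 0.59). Psmb7, with the trypsin-like site, measured 24.0, 14.4 and 43.3 against 30.9, 17.2 and 38.6 (0.15, SE 0.50). In all 3, the values within each group spanned a wider range than the distance between the group means, and the limma adjusted p was 0.937 or more.

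The ratio of Psmb8 to Psmb5 was 7.70, 9.08 and 5.12 in WT and 3.86, 7.35 and 4.50 in the labelled-deficient libraries. Psmb8 was thus in excess of its counterpart in every library, and the groups overlapped. The ratio of Psmb9 to Psmb6 was 0.745, 0.5001 and 0.359 against 0.663, 1.25 and 0.506, above 1 in labelled-deficient replicate 2 alone. That value rests on a Psmb6 estimate whose deposited interval ran from 0 to 43.7 FPKM. The ratio of Psmb10 to Psmb7 was 1.18, 1.24 and 0.602 against 0.447, 1.11 and 0.339, with replicate 3 the lowest of both groups.

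Averaged over the 3 pairs on the log2(FPKM + 1) scale, immunoproteasome over constitutive subunits came to 0.89, 0.78 and 0.05 in WT and 0.08, 1.06 and -0.11 in the labelled-deficient libraries. The group means were 0.57 ± 0.45 and 0.34 ± 0.63 (SD, n = 3). Their difference, -0.23, was smaller than the pooled SD of 0.55. It is a description and was not tested. Both libraries numbered 3 were at the low end, and labelled-deficient replicate 2 was the highest of all.

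**Figure D3:**
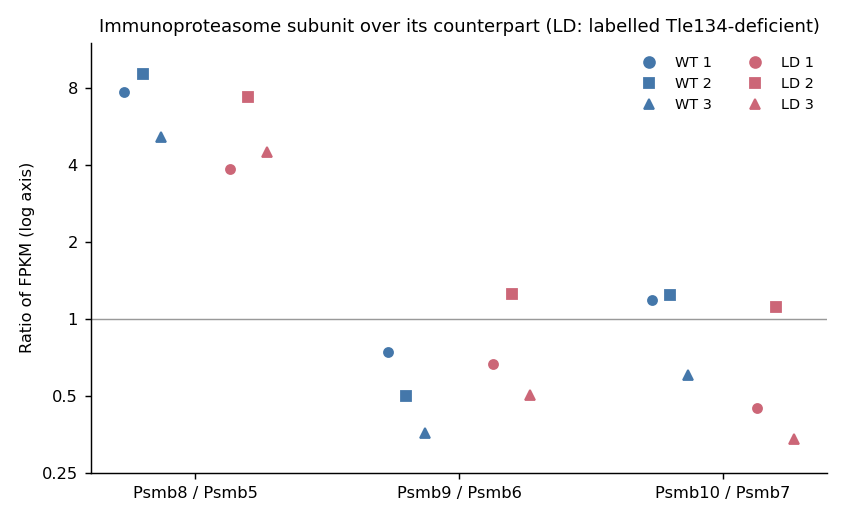
Ratio of FPKM (log axis) of each immunoproteasome subunit to its constitutive counterpart in the 6 libraries, with LD for the libraries labelled Tle134-deficient and a line at equal levels. Psmb8 exceeds Psmb5 by 3.86-fold to 9.08-fold, while the other 2 ratios lie between 0.339 and 1.25.

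The alpha ring held the most abundant constitutive subunits. Psma7 was the highest of all 31 in 4 libraries, with 70.4 and 161 FPKM in WT replicates 1 and 3 and 73.4 and 134 in labelled-deficient replicates 1 and 3, and Psma4 and Psma3 were the highest in the libraries numbered 2. Psma7 differed between the groups by -0.13 (SE 0.67). The ring's differences ran from -0.39 for Psma1 to 0.56 for Psma5, with 3 of 7 above 0 and a median of -0.13. Psma5, which measured 20.2 ± 11.98 FPKM in WT and 28.3 ± 10.5 in the labelled-deficient libraries (SD, n = 3), had a limma adjusted p of 0.823 and a difference of 0.13 to 0.98 with 1 library left out.

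In the constitutive beta ring, 5 of 7 genes were above 0, with a median of 0.15. Psmb3, a structural beta subunit without a proteolytic site, had the largest difference among constitutive subunits. Its values were 15.5, 15.7 and 71.0 FPKM in WT and 49.9, 26.1 and 58.7 in the labelled-deficient libraries (0.69, SE 0.63, limma adjusted p 0.820), and the difference ran from 0.33 to 1.39 with 1 library left out. WT replicates 1 and 2 lay below every labelled-deficient library and WT replicate 3 above every one, and the deposited interval of that last value ran from 0 to 1002 FPKM. Psmb1, also structural, was the most abundant of the ring at 50.04 ± 31.5 against 70.4 ± 48.2 FPKM (0.45, SE 0.60).

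The 6 ATPases of the base, which thread substrates into the barrel, differed by -0.43 (Psmc5) to 0.28 (Psmc2), with a median of -0.07. Psmc1 was the most abundant at 43.2 ± 17.2 FPKM in WT and 40.3 ± 16.6 in the labelled-deficient libraries. Psmc5 measured 27.7 ± 5.25 against 22.6 ± 12.2 (limma adjusted p 0.870).

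The 11 non-ATPase subunits had a median difference of 0.01. Psmd4, a ubiquitin receptor, was the most abundant at 62.25 ± 28.5 FPKM in WT and 58.4 ± 24.6 in the labelled-deficient libraries, and differed by -0.08 (SE 0.52). Psmd14, the deubiquitinase of the lid, measured 28.1 ± 13.7 against 29.7 ± 6.38 (0.19, SE 0.48). Psmd1, a scaffold of the base, was the gene with the highest difference of the class at 0.24, and the lid subunit Psmd12 had the lowest at -0.44 (20.4 ± 13.5 against 13.2 ± 2.76 FPKM). Psmd11, a lid subunit that bridges lid and core, varied least, with 25.005 ± 0.69 FPKM over the labelled-deficient libraries and 23.1 ± 5.18 over WT.

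Psmd5, Psmd9 and Psmd10 carry subunit-like symbols but encode chaperones that assist assembly of the base. Their group means were 4.60 to 17.4 FPKM, and all 3 differences were above 0 (0.57, 0.39 and 0.19, smallest limma adjusted p 0.774). Psmd5 had the largest, at 11.3 ± 4.84 FPKM in WT and 17.4 ± 7.11 in the labelled-deficient libraries (SD, n = 3), and its difference ran from 0.29 to 0.87 with 1 library left out.

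Constitutive subunits were high or low together from library to library, in the same replicates of both groups. Their median level was 29.2, 20.8 and 47.4 FPKM in WT and 29.4, 21.9 and 39.1 in the labelled-deficient libraries. Replicate 3 was thus the highest and replicate 2 the lowest of both groups. Of the 31 genes, 29 had their highest value in a library numbered 3, against 48.7% of all genes tested, and 22 had their lowest in a library numbered 2, against 34.4% of all genes. Replicate 3 was the highest of its own group in both groups for 27 of the 31 (87.1%), against 27.7% of all genes. In FPKM, the highest library exceeded the lowest by a median of 2.88-fold within WT and 2.29-fold within the labelled-deficient group. The group means of log2(FPKM + 1) differed by a median of 1.11-fold and at most 1.61-fold. These are unlike measures, a range of single libraries and a difference of averages.

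Expressed as the difference from each gene's mean over the 6 libraries, the constitutive subunits had a median of -0.26, -0.48 and 0.72 on the log2 scale in WT and 0.02, -0.57 and 0.55 in the labelled-deficient libraries. Over all genes the same medians were -0.25, -0.11 and 0.23 against -0.06, -0.11 and 0.18. The libraries numbered 3 were thus higher for genes at large too, by less. The summed level of 7 cycling-cell markers was 149, 159.8 and 280.6 FPKM in WT and 113.3, 103.1 and 284.7 in the labelled-deficient libraries. That of 9 monocyte, macrophage and neutrophil markers was 45.6, 75.4 and 321.5 against 69.0, 64.5 and 748.3. Both sums were highest in replicate 3 of each group, and their part in the pattern was not tested. In labelled-deficient replicate 3, S100a9 (333 FPKM) and Elane (266) were the largest values behind the second sum. Single genes of the lists did not all follow. Mpeg1 was lowest in labelled-deficient replicate 3 of its group (16.8, 17.7 and 13.7 FPKM), and Itgam in WT replicate 3 (1.18, 2.05 and 0.77). The cycling gene Cdk1 was highest in labelled-deficient replicate 2 of its group (5.77, 9.27 and 7.75). Assembled loci numbered 84310, 161977 and 83221 in WT and 73915, 184829 and 122740 in the labelled-deficient libraries. Replicate 2 of each group had the most, and the part of this in the pattern was not tested. With both libraries numbered 3 left out, the median difference of the constitutive subunits between the groups was 0.03, and 0 members passed the threshold.

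**Figure D4:**
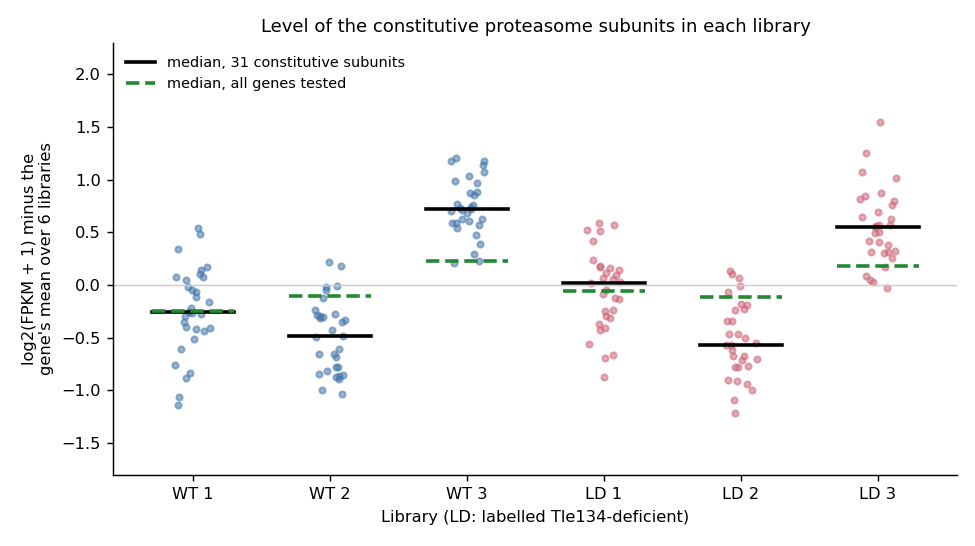
Deviation of each constitutive subunit (points, 31 per library) from its own mean over the 6 libraries, in log2(FPKM + 1) units (y axis), with LD for the libraries labelled Tle134-deficient. The black medians of the libraries numbered 3 (0.72 and 0.55) and 2 (-0.48 and -0.57) lie farther from 0 than the green medians of all genes tested.

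Within a library, the constitutive subunits differed in RNA level. The most abundant constitutive subunit exceeded the least abundant by 6.15-fold (WT replicate 3) to 8.93-fold (labelled-deficient replicate 3). The order of the 31 genes was partly shared: Spearman's rho between libraries ran from 0.433 to 0.889 over the 15 pairs of libraries, a description over genes that share gene length and base composition. By mean level, all 31 lay above the median of the genes tested, 29 above the 75th percentile and 13 above the 90th.

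Among the activators, Psme1 (PA28 alpha), which forms a ring with Psme2 (PA28 beta), was the most abundant member in every library. It measured 125, 111 and 275 FPKM in WT and 185, 808 and 229 in the labelled-deficient libraries. Labelled-deficient replicate 2 stood apart, at 20.9 times the level of Psme2, where the other 5 libraries had 1.96 to 4.46 times. The deposited interval there ran from 690 to 926 FPKM, whereas that of labelled-deficient replicate 3 ran from 0 to 7094. The difference of 1.05 (SE 0.69, 95% interval -0.49 to 2.59, limma adjusted p 0.709) fell to 0.40 without labelled-deficient replicate 2.

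Psme2 measured 34.2, 24.8 and 140 FPKM in WT and 61.4, 38.7 and 96.9 in the labelled-deficient libraries, with the replicate order of the constitutive subunits and overlapping groups (0.31, SE 0.67). Psme3 (PA28 gamma), the nuclear activator, measured 14.5, 20.1 and 22.4 against 22.1, 15.4 and 28.6 (0.18, SE 0.40). Psme4 (PA200), another nuclear activator, measured 8.16, 12.6 and 13.5 against 31.4, 8.42 and 13.7, where the group difference of 0.44 came with a single high library. Psmf1, an inhibitor of the core particle, was low at 4.31 ± 1.80 FPKM in WT and 3.69 ± 0.85 in the labelled-deficient libraries (-0.13, SE 0.49, SDs with n = 3).

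Psme2b was the single member whose groups did not overlap, and it is named here after its values were seen. Its locus measured 4.98, 4.12 and 14.1 FPKM in WT and 39.4, 26.6 and 30.7 in the labelled-deficient libraries. The difference was 2.09 (SE 0.49, 95% interval 0.99 to 3.18) and did not pass the threshold (limma adjusted p 0.111). Without WT replicate 3 it was 2.57, with a limma adjusted p of 0.0417. In all 6 libraries the value belongs to an assembled locus (within mm9 chr11:48756921-48864744) shared with 9930111J21Rik1 and 9930111J21Rik2, so it cannot be assigned to Psme2b. Reads could also be split between Psme2b and its near copy Psme2. The B cell marker sum moved with the groups in the same direction, and its part in this value was not tested.

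**Figure D5:**
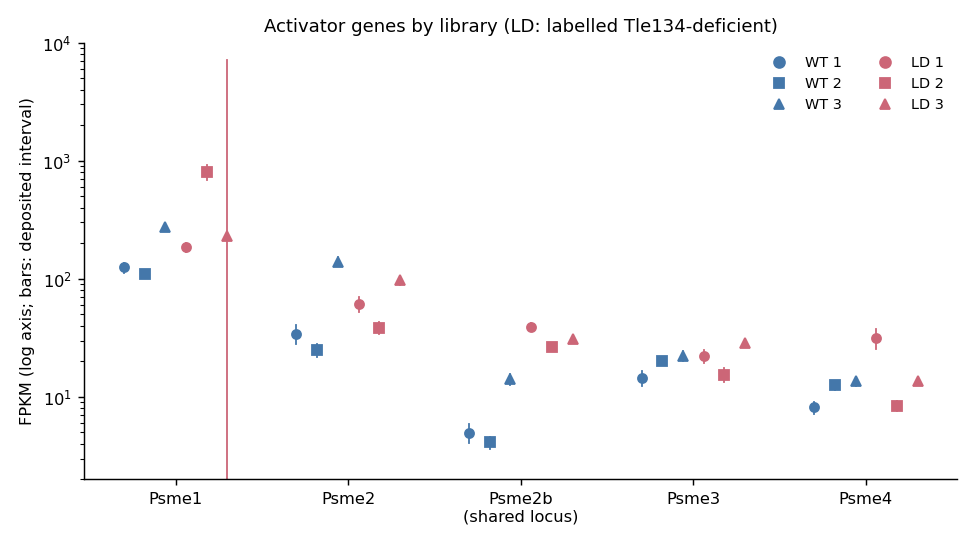
FPKM (log axis) of 4 activator genes and the locus of Psme2b in the 6 libraries, with bars for the deposited interval and LD for the libraries labelled Tle134-deficient. The locus of Psme2b is higher in all 3 labelled-deficient libraries (26.6 to 39.4) than in WT (4.12 to 14.1), and the bar of Psme1 in labelled-deficient replicate 3 runs off the lower end of the axis, to 0.

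The tissue-restricted subunits were at or near 0 and were not tested. Psma8, the alpha subunit of spermatogenic cells, measured 0.35, 0 and 0.58 FPKM in WT and was listed at 0 in all 3 labelled-deficient libraries. Psmb11, the catalytic subunit of the thymoproteasome in cortical thymic epithelium, measured 0.47, 0.06 and 0 in WT and 0, 0.35 and 0.07 in the labelled-deficient libraries. The 10 thymic epithelium markers, which include Psmb11, summed to 4.47 to 19.6 FPKM in WT and 10.7 to 33.1 in the labelled-deficient libraries, with Foxn1 and Krt5 at 0.56 or less throughout. Other markers of the list were present: Epcam at 1.84 to 4.05 FPKM over the 6 libraries, Ccl25 at 0 to 21.8, and Krt8 at 1.42, 0.40 and 0.39 in WT and 15.8, 5.10 and 1.25 in the labelled-deficient libraries (1.87, limma adjusted p 0.396). All 4 markers tested had a difference above 0, and 0 of them passed the threshold. Of the markers not tested, Aire, Foxn1, Cldn4 and Psmb11 had a lower mean in the labelled-deficient libraries, and Krt5 and Krt14 a higher one. Aire measured 2.56, 1.51 and 0.086 FPKM in WT and 0.57, 0.62 and 0.099 in the labelled-deficient libraries. Psmc3ip measured 0, 8.15 and 13.4 against 5.99, 2.17 and 14.2. Its value of 0 in WT replicate 1 is not marked as failed in the deposited values.

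Genes that serve the proteasome without being members also gave 0 calls by limma in either direction. Of 10 assembly and associated factors tested, 9 had a difference below 0, with a median of -0.22. The lowest was Psmg1, a chaperone of the alpha ring (-0.78, limma adjusted p 0.774), and Pomp, which matures the beta ring, followed the libraries like the subunits, at 37.4, 31.5 and 129 FPKM in WT and 32.4, 23.5 and 76.8 in the labelled-deficient libraries. Of 11 ubiquitin and shuttle genes, Ubqln4, a shuttle factor, was lower without overlap (26.1, 10.5 and 15.3 against 6.12, 6.74 and 6.92 FPKM) but did not pass (limma adjusted p 0.353). The 7 genes of proteasome transcription, among them Nfe2l1, the activator of subunit genes when the proteasome is short (0.32, limma adjusted p 0.892), had a median of 0.12. At an unadjusted p under 0.05 limma counted 0, 1 and 0 genes of these lists, and 10.05% of all genes.

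The class I and interferon gamma genes, which share regulation with the immunoproteasome, gave 0 calls as well. Of 11 class I presentation genes, 3 were higher in the labelled-deficient libraries without overlap: the peptide transporter gene Tap1 (0.68, limma adjusted p 0.650) and the heavy chain genes H2-K1 (0.87, 0.675) and H2-D1 (1.32, 0.428). Of all genes, 8.73% were higher without overlap. The median of the list was 0.16, and 1 gene had an unadjusted p under 0.05, against 10.05% of all genes. H2-K1 and H2-D1 have close copies, between which reads may be split. Nlrc5 overlapped, at 9.09, 6.73 and 4.79 FPKM in WT and 10.3, 25.2 and 8.44 in the labelled-deficient libraries (0.88, limma adjusted p 0.644).

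In the interferon gamma list of 10 genes, 3 had an unadjusted p under 0.05, against 10.05% of all genes, and the median difference was 0.57. Without overlap, 3 were higher and 2 lower, against 8.73% and 6.57% of all genes. Irf8, a transcription factor of B cells and myeloid cells, measured 13.2, 8.33 and 20.4 FPKM in WT and 45.7, 79.6 and 46.9 in the labelled-deficient libraries (1.998, limma adjusted p 0.104). Ifngr2, the signalling chain of the receptor, was higher without overlap (1.89, limma adjusted p 0.181). Ifngr1, the ligand-binding chain, was lower without overlap, at 197.6, 113 and 98.1 FPKM in WT and 94.9, 70.5 and 74.3 in the labelled-deficient libraries (-0.71, limma adjusted p 0.722). Irf1, an activator of immunoproteasome genes, was lower without overlap, at 43.0, 85.8 and 39.2 against 25.3, 25.5 and 21.1 (-1.11, limma adjusted p 0.410). Psmb8, Psmb9 and Psmb10 overlapped between the groups beside these values. The B cell marker sum was higher in the same libraries, and its part in the class I and interferon gamma values was not tested.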

How the data were processed

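RNA of 6 sorted DN1 libraries (3 WT, 3 labelled Tle134-deficient) was sequenced. Per the submitters' processing notes, the tools included Trimmomatic 0.38, TopHat2 2.1.1 and featureCounts 2.0.1 and the build was mm9. Per the file headers, the deposited values are FPKM for each assembled locus and its interval bounds, in the layout of Cufflinks. How annotation and strand entered the counting was not given in the sources used here. Read depth is unknown. FPKM was summed over the rows of a symbol (Python 3.11.15, pandas 2.3.3), and symbols at a shared locus each took its value. Genes at 1 FPKM or more in at least 3 libraries were fitted as log2(FPKM + 1) with limma 3.58.1 (R 4.3.3), group as the only term, with a trend and robust step, and called at a Benjamini-Hochberg adjusted p under 0.05. Differences on this scale understate changes of low genes. The fit was tested on simulated data with independent noise and changes larger than that of any member. That test does not cover differences of the size reported here. The members and lists were chosen with earlier results of these data known. Named genes were the catalytic subunits, PA28 and tissue-restricted genes, and per class the most abundant member and those with the largest difference in each direction, and other members are named for their role. From the other lists, some genes with a small adjusted p, without overlap or with a role given in the text were named, not all such genes. RefSeq promoter entries matched 39 of 46 members.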

Additional observations from a re-analysis of the deposited data

How the results depend on the processing

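The 0 calls among proteasome genes, in either direction, held under each alternative run (pseudocount 0.1, no filter, shared loci joined, largest row, median scaling, the replicate block, each library left out), except that the count of higher members ran from 0 to 1 with 1 library left out, the 1 being Psme2b without WT replicate 3. The count of all genes called moved far more: 81 as reported, 33 with pseudocount 0.1, 0 without a filter, 0 with the replicate block, 33 without both libraries numbered 3 (chosen after seeing the data), and 0 to 61 with 1 library left out. In the runs with 0 genes called, the 0 for proteasome genes followed from that and shows no stability. Beside the counts of 0, limma had 1220 genes at an unadjusted p under 0.05 without a filter and 1434 with the block. The cause was not tested. Same-numbered libraries correlated in their deviations from the group means at 0.087, 0.187 and 0.167, and the other pairs at -0.193 to 0.024. Each library thus correlated best with its own number. The main fit did not pair libraries by number, so what same-numbered libraries share stays in its SEs, intervals and p-values.

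Of 22 named genes under 286 gene and setting combinations, 260 kept the sign and 26 did not, and 0 passed the threshold (smallest adjusted p 0.359 by limma). Psme2b is not among these 22 and passed without WT replicate 3, as above. With 1 library left out, the log2 differences that changed sign ran from -0.47 to 0.16 for Psmb8, -0.053 to 0.43 for Psmb9, -0.087 to 0.83 for Psmb5, -0.86 to 0.15 for Psmb6, -0.22 to 0.54 for Psmb7, -0.18 to 1.05 for Psme2, -0.020 to 0.41 for Psme3, -0.61 to 0.40 for Psma7, -0.61 to 0.017 for Psma1, -0.070 to 0.92 for Psmb1, -0.41 to 0.18 for Psmc1, -0.079 to 0.65 for Psmc2, -0.79 to 0.067 for Psmc5, -0.42 to 0.25 for Psmd4, -0.082 to 0.64 for Psmd1, -0.75 to 0.042 for Psmd12 and -0.43 to 0.085 for Psmf1. Psmf1 was at 0.0072 without both libraries numbered 3. The immunoproteasome score difference stayed between -0.59 and -0.01 with 1 library left out, within 1 SD of the value reported. With 3 libraries a group and intervals that mostly exceed 2-fold, small changes of single subunits were not detectable in the fit without a replicate term. With the replicate block, the SE of Psmb8 was 0.27 in place of 0.52 and that of Psma7 0.27 in place of 0.67. That of Psmb10 moved less, to 0.37 from 0.39.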
